A study of Rattus norvegicus with 862 samples.

Results

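Imatinib, an inhibitor of a small set of tyrosine kinases used against leukaemia, was given to rats at 15 or 150 mg/kg, and RNA of the whole heart was measured on whole-genome rat arrays of Affymetrix. The arrays were chosen by their labels: compound imatinib, either dose, water as the vehicle and oral gavage as the route. They numbered 18 of the 862 arrays of the collection, 1 array for each animal. At 15 mg/kg there were 9 animals and at 150 mg/kg 9 animals, with 3 of each dose after 1, 3 and 5 d of daily dosing. The controls were 9 animals given water by oral gavage without a compound, again 3 at each duration, from the same RNA extraction campaign (a run of extraction dates in the labels) and, by their titles, the same study. All were male Sprague-Dawley rats bought at 6 to 8 weeks of age, so that age, sex, strain, vehicle and route were shared by every group. Hearts of 1 d were collected from early afternoon and those of 3 and 5 d from early morning, so duration and hour of collection cannot be told apart. Each treated group was compared with controls of its own duration, and therefore of its own hour.

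Imatinib blocks ABL1, the basis of its use in leukaemia, and also KIT, the PDGF receptors, the CSF1 receptor, the discoidin domain receptors and the quinone reductase NQO2. These receptors are held by particular cells of a heart: PDGFRB by pericytes, the cells wrapped around capillaries, KIT by mast cells, CSF1R by macrophages, and PDGFRA by fibroblasts. KIT also serves the precursors of red blood cells in the bone marrow, whose youngest released cells still carry RNA in the blood that fills a heart.

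Heart muscle markers were near the top of the range of the arrays in every animal, with Myh6, the alpha myosin heavy chain, at log2 levels between 14.19 and 14.42. The 27 arrays correlated with their mean at r of 0.985 to 0.996, and the lowest were replicate 2 of the 5 d controls and replicate 2 of 150 mg/kg at 5 d, at 0.985 each, with replicates 1 and 2 of 15 mg/kg at 1 d at 0.987. Alb, the liver gene for albumin, ran from 5.14 to 13.35 and passed 12 on 1 array, replicate 2 of 150 mg/kg at 5 d, as on 30 of the 862 arrays of the collection. The summed liver list ran from 10.63 to 12.57 in controls, from 10.60 to 12.65 at 15 mg/kg and from 10.33 to 14.17 at 150 mg/kg. The extraction day was unevenly shared, since the first day held 8 of 9 controls and 7 of 9 animals at 15 mg/kg but 3 of 9 at 150 mg/kg. The day was therefore added as a term in an alternative fit. For each gene whose change is described below and whose call over all durations was lost in that fit, the adjusted p is given. Of genes named below without their change, Apobec1 then differed by -0.53, under the fold limit, and Ptn by -0.43 (adjusted p = 0.144 by limma).

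Over all durations, genes of pericytes, mast cells, macrophages and red blood cells were among those that fell at 150 mg/kg, and Cyp1a1, Pdk4 and Nr1d1 rose. Calls needed a limma p of at most 0.01 after Benjamini-Hochberg adjustment and at least a 1.5-fold change. At 150 mg/kg 40 of 14217 genes were called against the control (0.281%), 37 lower (0.26%) and 3 higher (0.0211%). All 40 had the same sign at 1, 3 and 5 d. They were called on the mean of these 3 differences, so this agreement was partly set by the choice of genes. For 13 of the 37 lower genes every animal at 150 mg/kg was below every control, and over all genes 26 showed this separation (0.183%). For 15 mg/kg 0 genes were called (0%), with 452 at an unadjusted p under 0.05 in limma and 0 called by the methods' t-test. Chance alone gives about 1 in 20 of the 14217 genes under 0.05, which is more than 452. Between the doses 19 genes were called (0.134%), 18 lower and 1 higher at 150 mg/kg, and 17 of these 19 were among the 40. Of the lower genes 8 also showed no overlap between the doses, as did 13 of all genes (0.0914%). Both comparisons of 150 mg/kg share its 9 arrays. Changes are differences of log2 levels.

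With extraction day as a term, 21 genes were called at 150 mg/kg, among them 18 of the 40, and all 40 kept their sign with a median size of 0.78 against 0.82 without the term. With water controls of every campaign, 64 arrays that include the 9, 73 genes were called, among them 30 of the 40. All 40 kept their sign with a median size of 0.81. This fit is therefore not a check against separate controls. On the first extraction day alone, with 3 animals at 150 mg/kg, 2 genes were called, Ndufa4l2 and Cox4i2, and the median size of the 40 was 0.75, all with their sign. Without replicate 2 of the 5 d controls 27 genes were called. Without the array of high Alb 40 were called, 35 of them of the 40.

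Promoters of 4 genes are shown, from 250 bases before to 50 after the start in RefSeq's rat assembly GRCr8. Each gene fell and is a marker of a cell type: Ndufa4l2 and Kcnj8 of pericytes, Cpa3 of mast cells and Alas2 of the red cell lineage. They do not stand for every marker of these cells. Capitals mark AGATAA, the letters bound by GATA factors, which direct the mast cell and red cell programmes. They were searched on both strands.
Ndufa4l2, chr7:65241919-65242218, plus strand: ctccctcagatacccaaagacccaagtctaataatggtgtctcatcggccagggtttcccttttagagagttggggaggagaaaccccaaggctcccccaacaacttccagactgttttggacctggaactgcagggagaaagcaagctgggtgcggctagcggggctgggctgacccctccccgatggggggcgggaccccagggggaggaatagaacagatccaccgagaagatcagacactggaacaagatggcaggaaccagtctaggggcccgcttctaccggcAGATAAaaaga
Kcnj8, chr4:177246499-177246798, minus strand: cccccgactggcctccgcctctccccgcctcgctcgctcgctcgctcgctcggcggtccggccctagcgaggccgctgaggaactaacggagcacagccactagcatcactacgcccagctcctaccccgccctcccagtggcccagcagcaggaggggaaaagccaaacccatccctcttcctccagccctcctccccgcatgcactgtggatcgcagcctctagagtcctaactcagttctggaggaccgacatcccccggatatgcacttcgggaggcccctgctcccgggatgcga
Cpa3, chr2:104673188-104673487, minus strand: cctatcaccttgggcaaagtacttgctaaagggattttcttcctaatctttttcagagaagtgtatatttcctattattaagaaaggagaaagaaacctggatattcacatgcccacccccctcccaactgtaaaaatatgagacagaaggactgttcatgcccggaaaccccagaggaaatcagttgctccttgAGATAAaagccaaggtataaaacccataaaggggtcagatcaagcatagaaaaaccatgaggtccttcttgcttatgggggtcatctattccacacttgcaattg
Alas2, chrX:22895200-22895499, plus strand: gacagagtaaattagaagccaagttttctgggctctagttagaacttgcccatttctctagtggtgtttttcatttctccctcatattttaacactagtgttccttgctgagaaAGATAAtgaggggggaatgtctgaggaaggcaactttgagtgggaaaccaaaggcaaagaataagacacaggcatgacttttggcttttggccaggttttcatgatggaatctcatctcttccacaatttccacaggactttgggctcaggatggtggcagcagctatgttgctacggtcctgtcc
Of the 40 called genes, 30 had a promoter in the table and 5 of these held the letters: Alas2, Apobec1, Cpa3, Ndufa4l2 and P2ry14. Over all promoters of this length 3877 of 33469 held them, or 11.6%. Counted from the start, the letters begin at position -55 in Cpa3, -136 in Alas2 and 40 in Ndufa4l2, while the window of Kcnj8 held none. A match describes the sequence and was not tested as a site.

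Of the pericyte genes, Kcnj8, Ndufa4l2 and Rgs5 fell at 150 mg/kg. Kcnj8, the pore of the KATP channel of vessel walls, had a lowest, median and highest log2 level of 8.28, 8.57 and 8.79 in controls, 8.07, 8.41 and 8.70 at 15 mg/kg, and 6.29, 7.66 and 8.24 at 150 mg/kg. The 9 animals at 150 mg/kg were all below the 9 controls, and 15 mg/kg overlapped both of the other groups. Kcnj8 fell by 1.09 (SE 0.17, adjusted p = 0.00051 by limma), which is 0.47 of the control level, against a difference of -0.09 at 15 mg/kg (95% interval -0.45 to 0.26). Ndufa4l2, a mitochondrial protein related to a cytochrome oxidase subunit and strongly expressed in pericytes, ran at 7.83, 8.02 and 8.24 in controls, 7.70, 7.79 and 8.24 at 15 mg/kg and 6.55, 7.10 and 7.50 at 150 mg/kg. Again no animal at 150 mg/kg reached a control, nor did any reach an animal at 15 mg/kg. Ndufa4l2 was at 0.50 of the control level (SE of the log2 difference 0.10, adjusted p = 1.04e-06 by limma), the smallest adjusted p of all genes, and at 15 mg/kg it differed by -0.13 (95% interval -0.32 to 0.07). Rgs5, a regulator of G protein signalling used as a pericyte marker, fell by 0.81 (SE 0.14, adjusted p = 0.00194 by limma). With extraction day as a term the adjusted p was 0.000103 for Ndufa4l2, 0.0206 for Kcnj8 and 0.0514 for Rgs5, the latter pair no longer called. With water controls of every campaign Rgs5 differed by -0.55 (adjusted p = 0.0565 by limma).

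Of the 12 pericyte genes measured, these 3 were called lower, none was called higher, 12 were below 0 and 9 had an adjusted p of 0.05 or less. Their median was -0.54, against 0.0050 over all genes. Of all 14217 genes 197 had an adjusted p of 0.05 or less, 175 of them lower. This share applies to the lists below as well. The other 6 pericyte genes past 0.05 were Vtn (-0.79), Cd248 (-0.74), Cspg4 (-0.56), Higd1b (-0.50), Abcc9 (-0.37) and Anpep (-0.32), while Mcam (-0.11) and Notch3 (-0.07) were not past it. Vtn is in the liver list as well, whose summed level had a median of 11.48 in controls and 10.77 at 150 mg/kg. Abcc9 encodes the regulatory subunit that joins the product of Kcnj8 in the KATP channel, and Cspg4 the NG2 proteoglycan of the pericyte surface. The summed level of the list ran from 12.47 to 12.89 in controls, from 12.45 to 12.87 at 15 mg/kg and from 11.80 to 12.49 at 150 mg/kg, so the groups overlapped at their edges. In whole hearts, fewer cells of a type and less RNA per cell cannot be told apart. The pericyte median was -0.10 at 15 mg/kg, with 0 of 12 called.

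**Figure D1:**
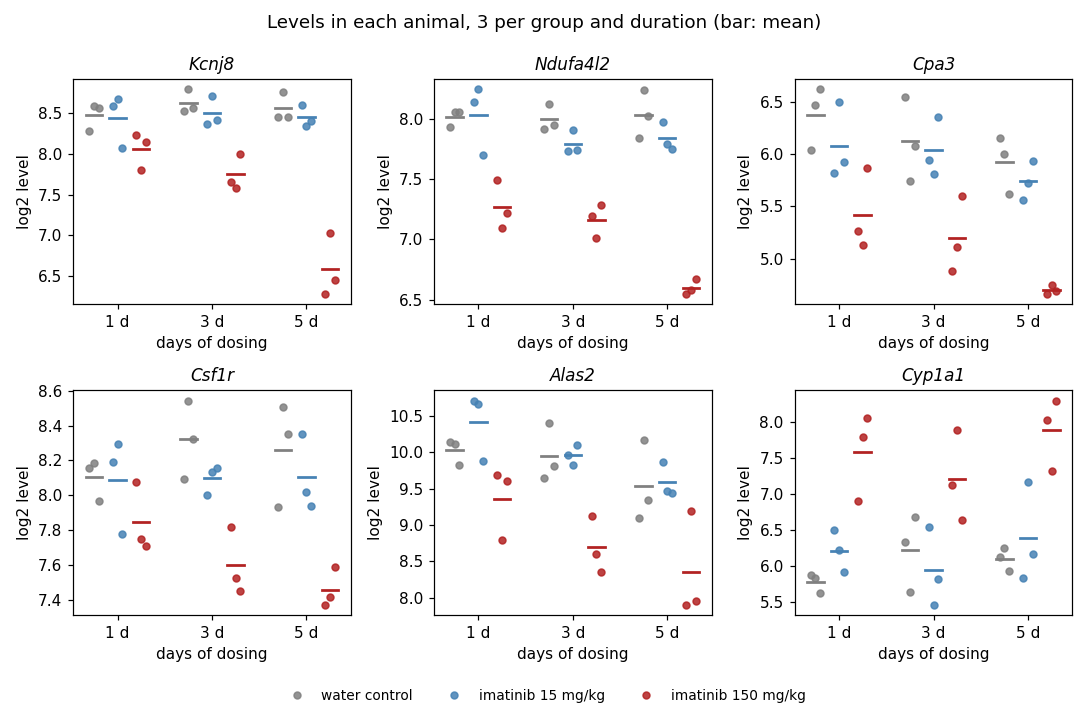
Log2 level (vertical axis) of Kcnj8, Ndufa4l2, Cpa3, Csf1r, Alas2 and Cyp1a1 in each of the 27 animals, by duration (horizontal axis) and, within it, control, 15 mg/kg and 150 mg/kg. Each point is 1 animal. The points of 15 mg/kg overlap the controls, while those of 150 mg/kg lie below every control for Kcnj8 and Ndufa4l2. For Cyp1a1 they are mostly higher, and the ranges overlap.

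The pericyte median lay farther below 0 at the later durations. The median of the 12 genes at 150 mg/kg was -0.30 at 1 d, -0.45 at 3 d and -0.95 at 5 d, with 0, 1 and 4 of them called. Kcnj8 by animal stood at 8.24, 7.80 and 8.14 at 1 d, at 7.66, 7.58 and 8.00 at 3 d and at 6.29, 7.03 and 6.46 at 5 d, against controls of 8.28, 8.59 and 8.57, of 8.52, 8.79 and 8.57, and of 8.46, 8.76 and 8.46. Each animal at 150 mg/kg was below the controls of its duration, and the 5 d animals were below all others. Its difference was -0.42 at 1 d, -0.88 at 3 d and -1.97 at 5 d, the last with an adjusted p of 1.4e-06 by limma, and the test of a difference between durations gave an adjusted p of 0.0436, which misses 0.01. Rgs5 stood at 9.99, 10.02 and 10.21 at 1 d, 9.63, 9.87 and 9.99 at 3 d and 8.81, 9.27 and 8.62 at 5 d. Animals at 15 mg/kg stood for Rgs5 at 9.92, 9.89 and 10.28, then at 10.41, 10.53 and 10.34, then at 10.46, 10.43 and 10.31. Controls stood at 10.41, 10.49 and 10.54, then at 10.74, 10.49 and 10.61, then at 10.21, 9.89 and 10.32. The doses thus overlapped at 1 d and were apart at 3 and 5 d. Of all genes, Rgs5 alone had a difference between the doses that changed with duration at an adjusted p of 0.01 or less (0.0079 by limma, 0.00703%), and this call was lost with 22 of the 27 animals left out in turn.

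**Figure D2:**
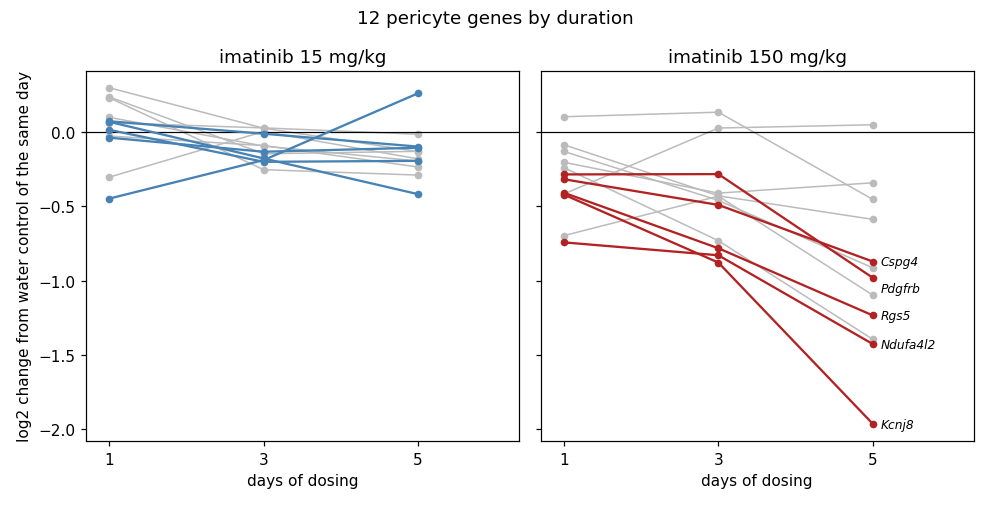
Log2 difference from the control (vertical axis) of the 12 pericyte genes at 1, 3 and 5 d (horizontal axis) for each dose, each line 1 gene, with Kcnj8, Ndufa4l2, Rgs5, Cspg4 and Pdgfrb in colour and the others in grey. At 150 mg/kg the median of the lines goes from -0.30 at 1 d to -0.95 at 5 d, and at 15 mg/kg it stays between 0.07 and -0.16.

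Several genes of large fall stood outside the pericyte list. P2ry14, a receptor for UDP-glucose, had 7.56, 7.74 and 8.50 as lowest, median and highest level in controls and 5.89, 6.97 and 7.31 at 150 mg/kg, with no overlap, and fell by 1.07 (SE 0.16, adjusted p = 0.000242 by limma). Rgs4, a relative of Rgs5, had 8.46, 8.71 and 9.28 against 6.90, 7.93 and 8.12, again apart, and fell by 1.05 (SE 0.13, adjusted p = 4.54e-05 by limma). A second probe set of Rgs4 gave the same difference of -1.05. Cox4i2, the lung form of a cytochrome oxidase subunit, fell by 0.93, and Steap4, a metal reductase, fell by 0.96. Vipr1, a receptor for vasoactive intestinal peptide, fell by 0.90 and S1pr3, a receptor for sphingosine-1-phosphate, fell by 0.78. At 5 d P2ry14 changed by -1.81, Rgs4 by -1.68, Steap4 by -1.46 and Cox4i2 by -1.44. Of Vipr1, the other probe set gave -0.07.

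Cpa3, Mcpt1l1 and Mcpt10, proteases of mast cell granules, fell at 150 mg/kg, while Kit and the genes of the IgE receptor were not called. Cpa3, the mast cell carboxypeptidase, ran at 5.62, 6.08 and 6.62 as lowest, median and highest level in controls, 5.56, 5.93 and 6.50 at 15 mg/kg and 4.66, 5.11 and 5.87 at 150 mg/kg. The highest animal at 150 mg/kg overlapped the lowest controls, and 15 mg/kg lay in nearly the range of the controls. Cpa3 fell by 1.04 (SE 0.13, adjusted p = 4.42e-05 by limma), with -0.96, -0.93 and -1.22 at 1, 3 and 5 d. Mcpt1l1, a mast cell protease of a family of near-identical genes whose probes may be shared, ran at 6.32, 6.90 and 8.06 in controls, 6.21, 6.61 and 7.68 at 15 mg/kg and 5.02, 5.40 and 6.25 at 150 mg/kg. No animal at 150 mg/kg reached a control, and it fell by 1.45 (SE 0.17, adjusted p = 2.71e-05 by limma), the largest fall of the 37. Mcpt10, of the same family, fell by 0.60 (adjusted p = 0.00572 by limma; 0.115 with extraction day as a term). Of the 16 mast cell genes listed, which do not include Mcpt1l1, 2 were called lower (Cpa3 and Mcpt10), 4 had an adjusted p of 0.05 or less (with the proteases Cma1 at -0.56 and Tpsab1 at -0.32), 11 were below 0 and the median was -0.06. Kit differed by 0.02 (adjusted p = 0.962 by limma), Hdc, which makes histamine, by -0.03, and Ms4a2 and Fcer1a, subunits of the IgE receptor, by -0.02 and -0.09. Control means by duration were 4.01 to 4.18 for Fcer1a, 4.19 to 4.23 for Ms4a2, 4.59 to 4.65 for Hdc and 5.41 to 5.64 for Kit. The median gene was at 7.04 and the lowest value at 3.15. Fcer1a, Ms4a2 and Hdc were thus low already in controls, and a fall could be missed.

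Of the macrophage genes, Csf1r and C1qa fell. Csf1r, the receptor for the growth factor of macrophages and itself an imatinib target, ran at 7.93, 8.19 and 8.54 as lowest, median and highest level in controls, 7.78, 8.14 and 8.35 at 15 mg/kg and 7.37, 7.59 and 8.08 at 150 mg/kg. The ranges of 150 mg/kg and control overlapped. Csf1r fell by 0.60 (SE 0.10, adjusted p = 0.000727 by limma; 0.0101 with extraction day as a term, and a difference of -0.49, under the fold limit, with water controls of every campaign). C1qa, a chain of complement C1q made by macrophages, ran from 7.95 to 8.62 in controls and from 7.27 to 7.87 at 150 mg/kg, with no overlap, and fell by 0.62 (SE 0.10, adjusted p = 0.000416 by limma). Of 18 macrophage genes 2 were called lower (Csf1r and C1qa), 7 had an adjusted p of 0.05 or less, 14 were below 0 and the median was -0.30. Cd68 (-0.47) and C1qc (-0.49) were past 0.05, whereas Mrc1 (-0.56, adjusted p = 0.0659 by limma), Lyve1 (0.04) and Cx3cr1 (0.09) were not. Outside the list, Cybb, the phagocyte oxidase, fell by 0.84, Ccl6, a chemokine, fell by 0.88, Clec4a3, a lectin receptor, fell by 0.68 and Ctss, a lysosomal protease of antigen presenting cells, fell by 0.61. The other probe set of Cybb gave -0.31. Clec4a3 (adjusted p = 0.0151 by limma) and Ctss (0.0223) were no longer called with extraction day as a term. The macrophage median was -0.09 at 15 mg/kg, with 0 of 18 called.

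Of the red blood cell genes, Alas2, Ahsp and Slc4a1 fell at 150 mg/kg, and none was called at 15 mg/kg. Alas2, which starts heme synthesis in red cell precursors, had 9.10, 9.83 and 10.41 as lowest, median and highest level in controls, 9.44, 9.88 and 10.71 at 15 mg/kg and 7.90, 8.79 and 9.69 at 150 mg/kg. The groups overlapped between 9.10 and 9.69. Alas2 fell by 1.04 (SE 0.18, adjusted p = 0.00153 by limma), against a difference of 0.15 at 15 mg/kg (95% interval -0.22 to 0.52). Slc4a1, the band 3 anion exchanger, fell by 1.03 (adjusted p = 0.00873 by limma), and its other probe set gave -0.37. Ahsp, the chaperone of alpha globin, fell by 0.87. Outside the list, Tent5c, a poly(A) polymerase, fell by 0.97, Bpgm, which makes the oxygen-release factor bisphosphoglycerate, fell by 0.64 and Hba-a3, an alpha globin of a multigene cluster, fell by 0.59. Of 8 red cell genes 3 were called lower (Alas2, Ahsp and Slc4a1), 8 were below 0 and the median was -0.41, against 0.05 at 15 mg/kg. With extraction day as a term Alas2 differed by -0.85 (adjusted p = 0.0544 by limma), and on the first day alone by -0.45 (adjusted p = 0.672). With that term none of the 3 was called, since Slc4a1 had an adjusted p of 0.0435 and Ahsp of 0.0223, nor were Bpgm (0.0435) and Hba-a3 (0.149). With water controls of every campaign the 3 kept their calls, while Hba-a3 differed by -0.45 (adjusted p = 0.0368 by limma). The part of the extraction day in this result was not tested further.

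Genes of fibroblasts and matrix lay below 0 as a group, under the fold limit. Of 21 such genes 0 were called over all durations, 21 were below 0, 7 had an adjusted p of 0.05 or less and the median was -0.27. The chains of collagen VI were Col6a2 (-0.57, adjusted p = 2.71e-05 by limma), Col6a3 (-0.52) and Col6a1 (-0.46), and Col1a1, the main chain of collagen I, was at -0.36. At 5 d Bgn, the proteoglycan biglycan, Col6a1 and Col6a2 were called, at -0.84, -0.64 and -0.71, and none of the 3 kept its call with extraction day as a term (adjusted p = 0.0325, 0.0466 and 0.0274 by limma), with water controls of every campaign (0.722, 0.248 and 0.0618) or without the array of high Alb (0.0546, 0.0208 and 0.0208). Bgn then differed by -0.35 with those controls and Col6a1 by -0.41. Called genes of the extracellular space outside the list were Serpine2 (-0.95), a protease inhibitor, Spon1 (-0.91), the matrix protein spondin, Sod3 (-0.65), the secreted superoxide dismutase, Loxl2 (-0.70), a collagen crosslinker, and Cdh11 (-0.65), a cadherin of mesenchymal cells. The other probe sets gave -0.02 for Loxl2 and -0.03 and -0.09 for Cdh11. With extraction day as a term Loxl2 (adjusted p = 0.0709 by limma) and Cdh11 (0.0767) were no longer called, and with water controls of every campaign Cdh11 (0.0199) and Sod3 (-0.50, under the fold limit) were not. The lower dose had a fibroblast median of -0.11, with 0 called.

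Among the targets of imatinib themselves, 1 of 9 was called, Csf1r. Pdgfrb, the pericyte receptor, ran at 7.61, 7.89 and 8.70 as lowest, median and highest level in controls, between 7.20 and 8.47 at 15 mg/kg and 7.09, 7.50 and 7.73 at 150 mg/kg, with overlap. Its difference was -0.52 (SE 0.14, adjusted p = 0.0517 by limma), and at 5 d alone -0.98 (adjusted p = 0.025). The other differences were -0.27 for Pdgfra, -0.21 for Ddr2, -0.08 for Abl1, 0.02 for Kit, 0.06 for Ddr1, 0.08 for Abl2 and 0.12 for Nqo2, none called. Of their 6 ligands measured 0 were called, and Il34, a second ligand of the CSF1 receptor, differed by -0.50 (adjusted p = 0.0114 by limma).

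Only 3 genes were called higher at 150 mg/kg over all durations. Cyp1a1, the classical target gene of the aryl hydrocarbon receptor (AHR), had 5.63, 5.92 and 6.68 as lowest, median and highest level in controls, 5.46, 6.16 and 7.16 at 15 mg/kg and 6.63, 7.79 and 8.29 at 150 mg/kg. The ranges met at a single animal, 6.63 at 150 mg/kg against 6.68 in a control. Cyp1a1 was 2.87-fold higher than in controls (log2 1.52, SE 0.21, adjusted p = 0.00012 by limma) and 1.38 log2 units higher than at 15 mg/kg (adjusted p = 0.00066). Of 7 AHR targets this was the 1 called, and the median was 0.31. Pdk4, a kinase that holds back the use of glucose in favour of fat, had 8.91, 9.52 and 10.11 in controls, 9.01, 10.25 and 10.42 at 15 mg/kg and 10.11, 10.68 and 12.02 at 150 mg/kg. The animals at 15 mg/kg overlapped both of the other groups. Pdk4 was 2.50-fold higher at 150 mg/kg (log2 1.32, SE 0.22, adjusted p = 0.0012 by limma) and at 15 mg/kg differed by 0.52 (95% interval 0.05 to 0.98, not called). Pdk4 was no longer called with extraction day as a term (adjusted p = 0.0171 by limma), and against the water controls of every campaign it differed by 0.18 (adjusted p = 0.811). Nr1d1, a repressor of the circadian clock, was higher by 0.63 (adjusted p = 0.0076 by limma), with 0.07 at 1 d, 1.24 at 3 d and 0.59 at 5 d. It had an adjusted p of 0.0514 with that term and of 0.276 against every campaign's controls, where it differed by 0.60, and its call was lost in 20 of 41 settings.

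For the 40 called genes the 15 mg/kg differences were small. Across the 37 lower genes they ran from -0.31 to 0.22 with a median of -0.14, against -0.81 at 150 mg/kg. All 37 had a 95% interval at 15 mg/kg that stops short of a 1.5-fold fall, and all 40 differences lay within 1.5-fold. Against 15 mg/kg, 150 mg/kg differed by -0.87 for Ndufa4l2, -0.85 for Cpa3 and -1.19 for Alas2 and was at 0.50 of the level for Kcnj8, all called, though Kcnj8 (adjusted p = 0.0417 by limma) and Alas2 (0.0128) were not with extraction day as a term. Csf1r (-0.46, adjusted p = 0.0193 by limma) and Rgs5 (-0.68, adjusted p = 0.0203) were not. The 2 genes called between the doses and not against the control were Car2, a carbonic anhydrase, and Vstm4, a membrane protein.

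**Figure D3:**
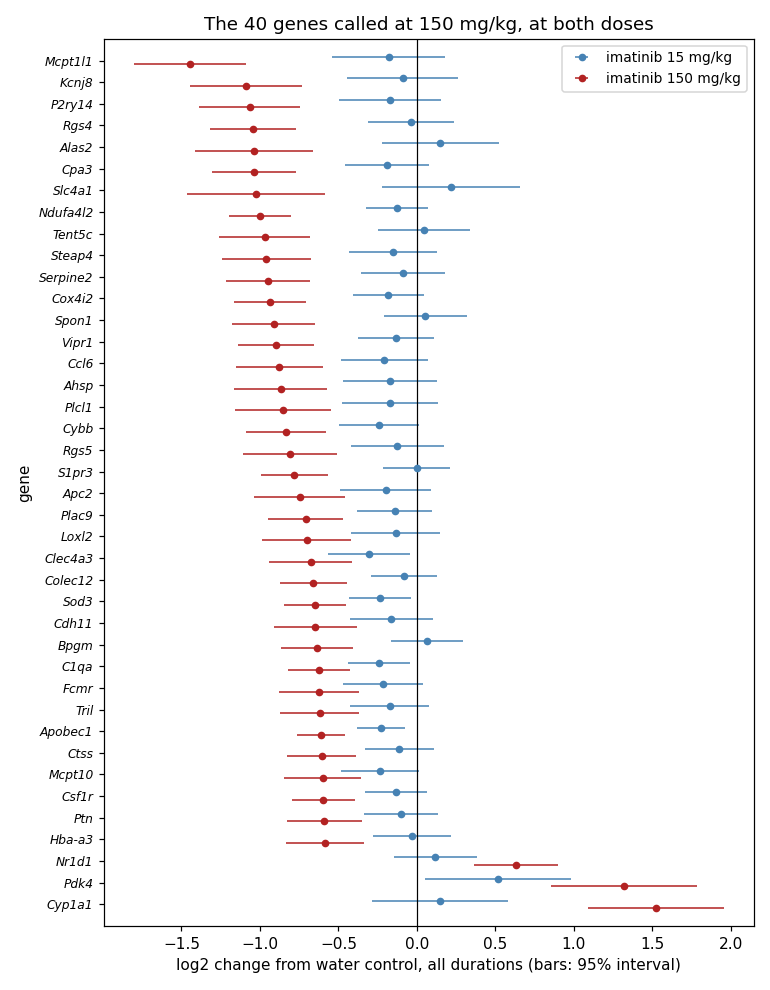
Log2 difference from the control (horizontal axis) of the 40 genes called at 150 mg/kg, with 95% intervals, for 150 mg/kg and 15 mg/kg. The genes were chosen by their 150 mg/kg values, which run from -1.45 for Mcpt1l1 to 1.52 for Cyp1a1, and at 15 mg/kg the lower genes lie between -0.31 and 0.22.

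By duration, the calls at 150 mg/kg differed in number. Without the 4 arrays of lowest correlation, which left fewer animals at 5 d than at 3 d, more genes were called at 3 d. Against the control 0 genes were called at 1 d (0%), where 1082 had an unadjusted p under 0.05 in limma and the methods' t-test called 0, 4 at 3 d (0.0281%; 3 lower, 0.0211%) and 57 at 5 d (0.401%), of which 24 were higher (0.169%) and 33 lower (0.232%). The test of a difference between durations called 0 of 14217 genes (lowest adjusted p = 0.03 by limma). The 37 genes lower over all durations had a median of -0.51 at 1 d, -0.82 at 3 d and -0.98 at 5 d, and 21 of them had their largest fall at 5 d, 14 at 3 d and 2 at 1 d. These 37 were chosen by the mean of the same differences. Called at 3 d were Nr1d1, Ctss, Ndufa4l2 and Hsd11b1, of which Ctss (adjusted p = 0.0251 by limma) and Ndufa4l2 (0.0205) lost the call with extraction day as a term and Nr1d1 (log2 0.31, adjusted p = 0.997) lost it with water controls of every campaign. Hsd11b1, which regenerates active glucocorticoid, stood at 9.04, 9.07 and 8.90 at 150 mg/kg and 9.91, 9.82 and 9.73 in controls, a difference of -0.82. It was called against 15 mg/kg at 3 d as well, beside Nr1d1 (0.0141%), both lost with extraction day as a term (adjusted p = 0.0303 and 0.0811 by limma), and 8 genes were called lower against 15 mg/kg at 5 d (0.0563%), led by Kcnj8. The count of 5 d rested on single animals. Without the array of high Alb, replicate 2 of 150 mg/kg, it was 14, of which 13 were among the 57. It was 19 without replicate 1 of 150 mg/kg, 18 without replicate 2 of the 5 d controls and 17 without replicate 3 of them. Without the 4 arrays of lowest correlation the counts were 21 at 3 d and 12 at 5 d. These arrays include replicate 2 of the 5 d controls and replicate 2 of 150 mg/kg at 5 d. The 2 counts therefore rest on unequal numbers of animals and cannot order the durations. With extraction day as a term 17 of the 57 were still called, 4 of the 24 higher and 13 of the 33 lower, and with water controls of every campaign 3 of the 24 and 14 of the 33 were, all 57 with their sign. The count of 4 at 3 d was 16 without replicate 2 of the 5 d controls, 7 without replicate 1 of 15 mg/kg at 5 d, and 2 without each of 6 other animals.

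Higher at 5 d were immediate early and stress genes of large range. Atf3, a stress transcription factor, stood at 9.32, 9.61 and 9.65 at 150 mg/kg, 4.70, 9.62 and 8.79 at 15 mg/kg and 4.44, 5.04 and 4.59 in controls. The animals at 150 mg/kg were all far above the controls, and at 15 mg/kg 2 of 3 were. Atf3 differed by 4.84 (adjusted p = 0.002 by limma; 0.0139, no longer called, without the array of high Alb). Nr4a3, an orphan nuclear receptor of the same early wave, stood at 9.90, 10.31 and 6.78 against 4.50, 4.51 and 4.38, a difference of 4.53 (adjusted p = 0.0063; 0.0537 without that array). Neither was called with extraction day as a term (adjusted p = 0.0111 for Atf3 and 0.0208 for Nr4a3 by limma) or against the water controls of every campaign, where Atf3 differed by 2.76 (0.31) and Nr4a3 by 2.66 (0.487). Over all durations the other probe sets of Nr4a3 gave 0.82 and 0.58, against 1.52 for the one used. Fos, a subunit of AP-1, stood at 5.47, 4.75 and 4.51 at 1 d against 10.55, 9.94 and 10.21 in controls, a difference of -5.32 (adjusted p = 0.2 by limma, not called), and was not called at 5 d. At 1 d the 2 groups did not overlap, and over all durations the controls ran from 4.39 to 10.55. Of 23 immediate early genes the median at 150 mg/kg was -0.76 at 1 d, 0.86 at 3 d and 0.90 at 5 d, with 0, 0 and 2 called. The medians at 15 mg/kg were 0.0044, 0.40 and 0.89, with 0 called at each.

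**Figure D4:**
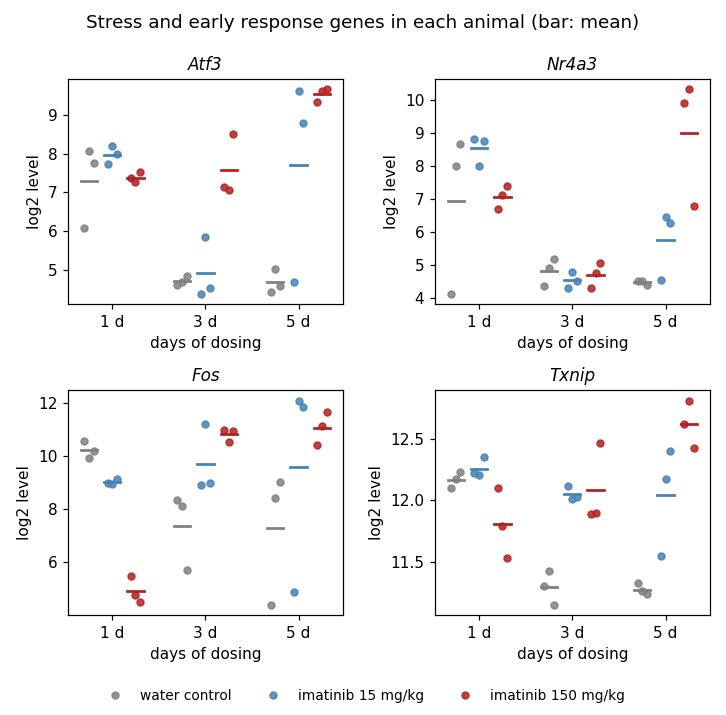
Log2 level (vertical axis) of Atf3, Nr4a3, Fos and Txnip in each animal by duration (horizontal axis) and dose, each point 1 animal. At 5 d the Atf3 points of 150 mg/kg lie between 9.32 and 9.65 and those of the controls between 4.44 and 5.04, while 2 of 3 points of 15 mg/kg are high, and Fos at 1 d is lower at 150 mg/kg than in controls.

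Muscle and metabolic genes were also among the 24 higher at 5 d. Txnip, which restrains glucose uptake, stood at 12.62, 12.81 and 12.42 at 150 mg/kg against 11.33, 11.26 and 11.24 in controls, apart in every animal, a difference of 1.34. Xirp1, an actin binding protein of intercalated discs, stood at 10.99, 11.01 and 10.84 against 9.84, 9.66 and 9.90, a difference of 1.15. At 1 d the difference was -0.36 for Txnip and 0.04 for Xirp1, and the tests between durations gave adjusted p of 0.03 for Txnip and 0.0436 for Xirp1 by limma, past 0.05 and not 0.01. Irs2, an adaptor of the insulin receptor, differed by 2.00, Abra, an actin-linked activator of SRF signalling, by 2.01 and Tcap, a cap protein of titin, by 0.73. Without the array of high Alb, Irs2 (1.65, adjusted p = 0.034 by limma) and Tcap (0.0223) were no longer called, and with extraction day as a term Irs2 (0.0111) was not. Against the water controls of every campaign none of the 5 was called, with Txnip at 0.91 (adjusted p = 0.0525 by limma), Xirp1 at 0.73 (0.313), Irs2 at 1.53 (0.0492), Abra at 0.92 (0.533) and Tcap at 0.49 (0.628). Of the 24, the 3 still called with those controls were Slfn4 (1.84, adjusted p = 0.00392 by limma), Irgm2 (1.18, 0.00064) and Ifih1 (0.78, 0.00119). None of these 3 kept its call with extraction day as a term (adjusted p = 0.055, 0.0274 and 0.0325 by limma). For Slfn4 the other probe set gave 0.08 over all durations, against 0.895 for the one used. Over all durations 0 of 22 heart muscle genes were called, with a median of 0.04.

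Lists without a called gene at 150 mg/kg over all durations included endothelial cells (14 genes, median -0.08), smooth muscle (10, -0.02), oxidative phosphorylation (68, -0.01), fatty acid oxidation in mitochondria (19, 0.13), the unfolded protein response (20, 0.0041), p53 targets (16, -0.03) and the cell cycle (38, -0.06). The interferon response (24 genes, median 0.23) and lymphocytes (14, 0.07) had none either. Of 17 circadian clock genes 1 was called, Nr1d1, and Nr1d2, its close relative, differed by 0.64 (adjusted p = 0.0202 by limma).

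At 1 d the count of 0 for 15 mg/kg rested on unlike replicates. Replicates 1 and 2 of 15 mg/kg at 1 d correlated at 0.9918, and with replicate 3 at 0.9854 and 0.9824. Without replicate 3 458 genes were called at 1 d, 58 higher and 400 lower, and without replicates 1 and 2 0 were. Acadsb, an acyl-CoA dehydrogenase, stood at 4.45, 4.99 and 7.19 in the 3 animals against controls between 7.14 and 8.19. Akap6, an anchor of protein kinase A at the nuclear envelope of heart muscle cells, stood at 6.84, 7.02 and 9.27 against 9.28 to 9.40. Both genes, named after their values were seen, were far below the controls in replicates 1 and 2 and not in replicate 3, and at 150 mg/kg they lay near the controls, with Acadsb from 7.36 to 8.05 and Akap6 from 9.27 to 9.37. Hk2, a hexokinase, stood at 5.54, 5.02 and 7.39 in the 3 animals. Its mean was 6.36 in the 5 d controls and 7.64 in those of 1 d. Hadhb, of fatty acid oxidation, had a mean of 11.94 at 15 mg/kg at 1 d. Its control means were 12.32 at 5 d and 12.85 at 1 d. The 3 d control means were 7.18 for Hk2 and 12.85 for Hadhb, genes also named after their values were seen. The 5 d controls differ from the 1 d animals in duration and hour, and include replicate 2, an array of lowest correlation. Whether these levels relate to dosing was not tested. Between the doses at 1 d 1 gene was called, Dhdds (0.00703%), a prenyltransferase of dolichol synthesis, at 8.08, 8.29 and 8.23 at 15 mg/kg and 9.13, 9.09 and 9.27 at 150 mg/kg, which lost its call with extraction day as a term (adjusted p = 0.0183 by limma). That count was 417 without replicate 3 of 15 mg/kg, 2 without replicate 2 of the 5 d controls, and 0 without replicate 1 of 15 mg/kg or replicate 1 or 3 of 150 mg/kg. At 3 d and 5 d 0 genes were called at 15 mg/kg in limma, with 187 and 1015 at an unadjusted p under 0.05 and 0 at each by the methods' t-test. At 1 d, with all 3 replicates, 1979 genes had an unadjusted p under 0.05 in limma. Against the 1 in 20 that chance gives, 187 is fewer and 1015 and 1979 are more. Without replicate 1 of 15 mg/kg at 5 d the count at 5 d was 12, and without replicate 1 of the 5 d controls it was 1.

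To see which of the 40 genes other compounds moved too, 88 other profiles of 83 compounds in the collection were tested at the same limits. Each was fitted alone with its controls, matched by vehicle, route, duration and extraction campaign. Profiles alike in these share control animals, so the counts of profiles are not independent. None of the 88 profiles shared the controls of imatinib, and the median profile called 25 genes. Of the 40, 13 were called in the same direction in at least 5 profiles and 12 in none. Red cell genes were called most often, Alas2 in 23 profiles, Hba-a3 in 20, Tent5c in 19, Ahsp in 17, Slc4a1 in 15 and Bpgm in 14, with Nr1d1 in 16 and Pdk4 in 12. Over all 14217 genes the mean was 0.325 profiles with a lower call per gene, 89.9% of genes had none and 1.99% had 5 or more. Of the pericyte genes Kcnj8 was called in 0, Ndufa4l2 in 2 and Rgs5 in 3 of 88 profiles, and Cox4i2, Vipr1, Sod3 and Ptn in 0. C1qa was called lower in 0 and higher in 9, and Csf1r lower in 1 and higher in 2. Cpa3 was called in 4 profiles and Mcpt1l1 in 7. The largest numbers of the 40 were shared with fluocinolone acetonide at 2.5 mg/kg, a glucocorticoid, which called 19 of them the same way among 814 genes, and with dexamethasone at 1 mg/kg, with 13 among 892. The groups behind these counts differ in size, vehicle and route, so the counts describe the collection and were not tested against each other.

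**Figure D5:**
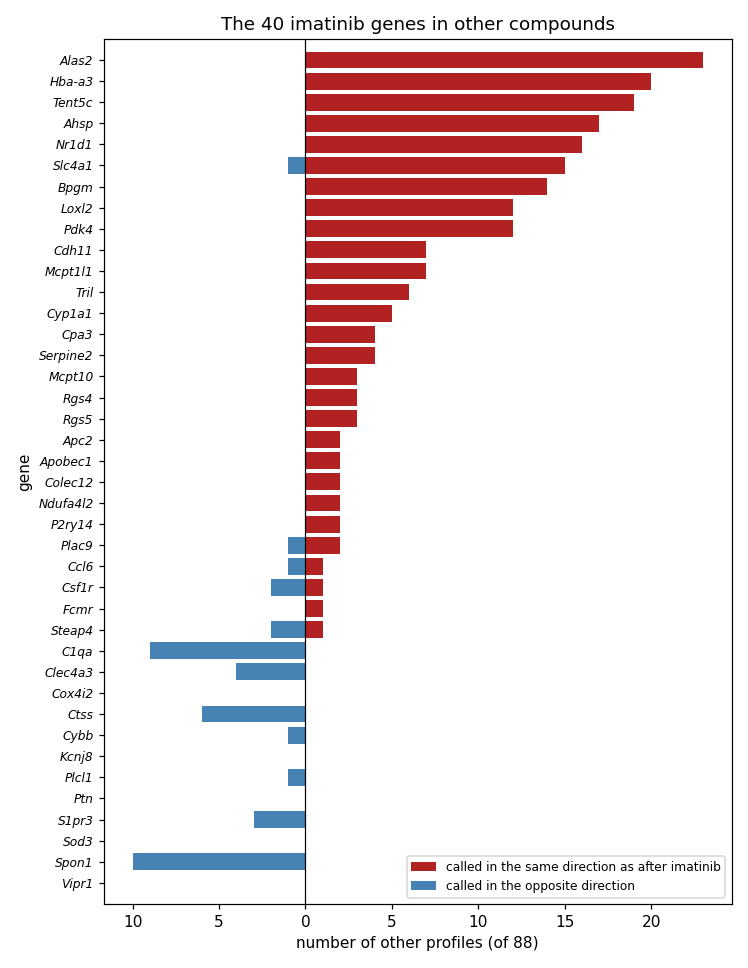
Number of the 88 other profiles (horizontal axis) in which each of the 40 genes was called in the direction of imatinib at 150 mg/kg or in the opposite one. Alas2 has the longest bar of the same direction with 23 profiles, and Kcnj8 has 0 in either.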

How the data were processed

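The authors deposited log2 expression values, 1 per probe set and array, and the submitters' notes name RMA, its version not given in the sources used here. RMA corrects the background, scales arrays to each other by quantiles and summarises probes, so shifts shared by all genes of a heart are removed. The study's methods name frma and frmaTools. The values were used as deposited, ran from 3.15 to 14.8 and have no depth; the number of animals limits the precision.

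The 27 arrays were taken by label, with 0 array columns left unmapped. The 57 control probe sets were left out, and the probe set of highest mean stood for each of 14217 genes. Groups of dose and duration were fitted together with the lmFit and eBayes functions of limma 3.58.1 (R 4.3.3), with p adjusted by Benjamini-Hochberg over all genes. A change over all durations is the mean of the 3 changes at 1, 3 and 5 d. Calls needed an adjusted p of at most 0.01 and a change of at least 1.5-fold, or for a difference between durations the first alone. Replicates were separate animals of 1 study, and p-values measure the spread between them. Python 3.11.15 with matplotlib 3.10.9 and pandas 2.3.3 drew the figures, and the fit was tested on simulated data.

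The animals and gene lists were chosen with earlier results of these data known. Named were, for each comparison over all durations, the called genes of largest change (up to 10 each way) with 1 sign at every duration, for each comparison at 1 duration up to 5 each way, up to 5 of smallest p between durations, and members of the lists, with all imatinib targets and Alb. Other genes of the 40, and of those called at 5 d, were named after their values were seen. The alternatives were extraction or hybridisation day as a term, the first extraction day alone, only the groups compared, the methods' t-test, the mean of all probe sets, a new quantile normalization, genes in the upper 60% by mean, a trended and robust eBayes, an adjusted p of 0.05 with no fold minimum, water controls of every campaign, leaving out the array of high Alb and leaving out each animal. Leaving out the 4 arrays of lowest correlation and Alb as a covariate were chosen after seeing the data. For 17 arrays of the collection the labels gave no group, and they were not analysed here.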

Additional observations from a re-analysis of the deposited data

Results flagged for a closer look

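Gaps within groups of 9 animals were screened for 141 pairs of gene and group, and in 7 of them 1 animal stood apart from the rest; chance gives about 1 in 20. Replicate 2 of the 5 d controls was the highest control for P2ry14 (8.4997, the next at 7.9918), Pdgfra (10.8014, the next at 10.259) and Pdgfrb (8.7, the next at 8.1534). Kit stood apart at 5.0703 in replicate 2 of the 3 d controls (the next at 5.4437) and Mcpt1l1 at 8.064 in replicate 3 of the 1 d controls (the next at 7.1754). At 15 mg/kg Pde4b stood apart at 9.4454 in replicate 3 of 1 d (the next at 9.0778) and Txnip at 11.5536 in replicate 1 of 5 d (the next at 12.0089). The difference between 150 and 15 mg/kg varied with duration for Rgs5 (adjusted p = 0.0079 by limma).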

How the results depend on the processing

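No paired analysis was possible because the replicate numbers were given in accession order and name only samples. Of 621 values of 46 gene results over the alternatives, 511 kept direction and call, 110 were no longer called and 0 reversed. Of 1242 values with an animal left out, 1144 kept both and 98 were no longer called. Ndufa4l2 over all durations, and Kcnj8, Rgs4 and Cox4i2 at 5 d, kept their calls in each of these settings. The causes of the changes in the counts below were not tested. On the first extraction day 150 mg/kg has 1 animal at each duration (at 5 d the array of high Alb), assumed to vary like the other groups.

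For 150 mg/kg against the control over all durations (40 genes), the count was 21 with extraction day as a term, 2 on the first extraction day, 197 at an adjusted p of 0.05 without a fold minimum, 73 with 64 water controls of 4 campaigns, and 27 to 47 with each animal left out. At 1 d (0) it was 2 with all campaigns' controls, 2 without the 4 arrays of lowest correlation and 0 to 2 with an animal left out. At 3 d (4) it was 2 with extraction day, 20 at 0.05, 0 on the first day, 9 with hybridisation day, 9 after a new quantile normalization, 9 with 2 groups alone, 2 by the methods' t-test, 8 in the upper 60% of genes, 8 with all campaigns' controls, 21 without the 4 arrays and 2 to 16 with an animal left out. At 5 d (57) these were 17 with extraction day, 209 at 0.05, 87 with hybridisation day, 18 by the t-test, 30 with all campaigns' controls, 12 without the 4 arrays, 14 without the array of high Alb and 14 to 80 with an animal left out. Differences between durations (0) were 4 at 0.05, 9 on the first day, 2 with hybridisation day, 14 with 2 groups alone, 3 without the 4 arrays and 0 to 12 with an animal left out (12 without replicate 1 of 15 mg/kg at 5 d).

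For 15 mg/kg against the control the count at 1 d (0) was 2 with extraction day, 2 at 0.05, 1 with hybridisation day, 8 with all campaigns' controls and 0 to 458 with an animal left out. At 5 d (0) it was 1 with all campaigns' controls and 0 to 12 with an animal left out, at 3 d and over all durations 0 to 0. Differences between durations (0) were 1 with hybridisation day, 1 with all campaigns' controls and 0 to 392 with an animal left out (392 without replicate 3 of 15 mg/kg at 1 d).

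For 150 against 15 mg/kg over all durations (19) the count was 11 with extraction day, 81 at 0.05, 2 on the first day and 18 to 25 with an animal left out. At 1 d (1) it was 2 at 0.05, 0 on the first day, 0 without the 4 arrays and 0 to 417 with an animal left out. At 3 d (2) it was 0 with extraction day, 0 on the first day, 4 at 0.05, 1 with 2 groups alone, 1 by the t-test, 1 without the array of high Alb, 1 with Alb as a covariate, 6 without the 4 arrays and 0 to 2 with an animal left out. At 5 d (8) it was 35 on the first day, 18 at 0.05, 15 with hybridisation day, 13 without the 4 arrays and 7 to 12 with an animal left out. Differences between durations (1) were 6 on the first day, 3 with hybridisation day, 0 after a new quantile normalization, 0 with 2 groups alone, 0 by the t-test, 4 without the 4 arrays, 2 without the array of high Alb and 0 to 2 with an animal left out.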
